A study of Mus musculus with 143 samples.

Results

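The Ly6 family genes Ly6a (which encodes Sca-1), Ly6c1, Ly6c2, Ly6d, Ly6e, Ly6g, Ly6i and Ly6k were followed across mouse tumours. These 8 genes were taken by symbol from the 54232 gene identifiers of the deposited table, and each symbol had 1 row. Bulk RNA of subcutaneous tumours of 11 implanted lines had been sequenced, in 3 arms per line. The baseline arm held 3 untreated tumours per line. The isotype arm held 5 tumours given a mouse IgG1 control antibody and the muDX400 arm held 5 tumours given muDX400, an antibody against PD-1. Both antibodies were injected on days 11 and 15 after implantation and those tumours were taken on day 19, which is called 8 days. The labels grade the lines by response to the antibody: CM3, MBT2 and MC38 are High, CT26, EMT6, MB49 and RENCA are Partial, and 4T1, B16F10, LL2 and TC1 are Resistant. The labels give no host strain, age or genetic change, and nothing says that tumours of a group came from separate experiments, so p-values measure the spread between these tumours only.

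Ly6 proteins are small, disulphide-bonded proteins, most of them tethered to the outer cell membrane by a lipid anchor. Several are used to sort cells: Sca-1 on haematopoietic stem cells, activated T cells, fibroblast progenitors and vessels, Ly6C on inflammatory monocytes and endothelium, and Ly6G on neutrophils. Interferons raise the transcripts of Ly6a, the Ly6c genes and Ly6e in many cell types, and Sca-1 on lymphocytes is known to differ between inbred strains of different Ly6 haplotype. In bulk tumours a lower value can come from fewer cells of a type or from less RNA per cell, and these cannot be told apart.

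The 8 genes lie within 397.1 kb of chromosome 15 in the GRCm38 annotation (GENCODE), an interval that holds 25 annotated genes, 14 of them protein coding and 6 pseudogenes. In order along the chromosome they are Ly6d (chr15:74762056-74763620, minus strand), Ly6k (chr15:74796874-74799986, minus), Ly6e (chr15:74955051-74959905, plus), Ly6i (chr15:74979534-74983430, minus), Ly6a (chr15:74994877-74998031, minus), Ly6c1 (chr15:75044018-75048830, minus), Ly6c2 (chr15:75108158-75111970, minus) and Ly6g (chr15:75155240-75159126, plus). All 8 are annotated as protein coding. Their transcripts are partly alike, which matters for reads of 50 bases. Of all 50-base windows in the annotated Ly6c1 transcripts, 32.77% also occur in another gene, and 21.49% occur in Ly6c2. The share was 18.97% for Ly6a (15.03% with Ly6c1), 14.38% for Ly6c2, 4.76% for Ly6i and 0.45% for Ly6g, and no window of Ly6d, Ly6e or Ly6k was shared. Values of Ly6a, Ly6c1 and Ly6c2 are therefore uncertain as separate genes, because reads of the shared windows had to be divided between them.

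The same likeness is visible upstream of the genes. RefSeq promoter sequences (GRCm38.p6) were at hand for Ly6c1, Ly6c2 and Ly6g, not for Ly6a, Ly6d, Ly6e, Ly6i and Ly6k. The 250 bases before the first RefSeq start are shown for these 3 because the Ly6c genes and Ly6g lie side by side and have very different levels in the tumours. Capitals mark the 12-base run found in all 3, and each sequence is written 5′ to 3′ on the gene's own strand. The RefSeq start of Ly6g lies inside the GENCODE gene, so the last bases of its window are within that gene.
Ly6c1 (chr15:75048838-75049087, minus strand): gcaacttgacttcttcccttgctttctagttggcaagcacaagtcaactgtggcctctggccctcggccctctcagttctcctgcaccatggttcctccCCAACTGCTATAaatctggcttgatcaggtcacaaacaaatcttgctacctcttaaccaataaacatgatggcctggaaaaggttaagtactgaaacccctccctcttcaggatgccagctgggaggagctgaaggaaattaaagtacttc
Ly6c2 (chr15:75111972-75112221, minus strand): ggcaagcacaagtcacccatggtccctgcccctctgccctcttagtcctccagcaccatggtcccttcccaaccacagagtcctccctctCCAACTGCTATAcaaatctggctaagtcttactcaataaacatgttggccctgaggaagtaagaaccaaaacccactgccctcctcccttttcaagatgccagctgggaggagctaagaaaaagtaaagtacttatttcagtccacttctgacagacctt
Ly6g (chr15:75155011-75155260, plus strand): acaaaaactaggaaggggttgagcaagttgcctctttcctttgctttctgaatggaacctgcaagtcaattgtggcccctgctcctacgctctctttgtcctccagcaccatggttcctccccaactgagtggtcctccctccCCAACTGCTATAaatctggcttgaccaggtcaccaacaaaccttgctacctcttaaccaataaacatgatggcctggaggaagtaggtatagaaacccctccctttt

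The run CCAACTGCTATA was held by 6 of 32851 promoter windows, or 0.0183%. Where bases faced each other in the alignment, 81.0% were identical between Ly6c1 and Ly6c2, 85.8% between Ly6c1 and Ly6g and 81.3% between Ly6c2 and Ly6g. The core of an interferon-stimulated response element (GAAA, 2 bases of any kind, GAAA) was not found on either strand of the 3 windows. It was present in 2.98% of all promoter windows.

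Depth was estimated at 11.35 to 49.55 M fragments per library (median 20.65 M) from the smallest steps of the values. Values are FPKM, fragments per kilobase of transcript, scaled to the mapped fragments of the library. 3 libraries stood apart in the members. In B16F10 isotype tumour 4 and B16F10 muDX400 tumour 2, Ly6a was at 2.41 and 4.13 FPKM and Ly6e at 10.7 and 20.2, the lowest values of all tumours. Their summed T cell markers were 0.362 and 0.538 FPKM, against 2.02 to 21.1 in the other 8 treated B16F10 tumours. In CM3 isotype tumour 4, Ly6a was at 509.5 FPKM against 97.3 to 274 in the other 4, and its summed macrophage markers were 2735 FPKM against 199 to 578. The means over lines and the muDX400 comparisons of B16F10 and CM3 are given with and without these 3 libraries. CM3 isotype tumours 2 and 3 had high FPKM totals, 784467 and 885333, against 525381 to 528393 in the other CM3 isotype tumours. Both were kept in these comparisons.

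Ly6a and Ly6e were among the most abundant transcripts of the tumours. Ly6a encodes the stem cell antigen Sca-1, and its level ran from 2.41 to 1276 FPKM with a median of 232. In isotype tumours its mean was highest in RENCA at 620 ± 150 FPKM (SD, n = 5), followed by EMT6 at 426 ± 312, MB49 at 264 ± 24.3, MC38 at 228 ± 73.3, CM3 at 220 ± 178 and MBT2 at 209 ± 38.2. Lower means were seen in CT26 at 156 ± 57.8, 4T1 at 134 ± 52.3 and TC1 at 106 ± 16.6. B16F10, at 29.1 ± 15.8, and LL2, at 25.3 ± 8.35, formed the low end. The 5 LL2 tumours held 38.9, 21.7, 19.9, 27.3 and 18.5 FPKM and the 5 RENCA tumours 791, 740.1, 587, 412 and 569. These 2 groups did not overlap, and the lowest RENCA tumour was far above the highest LL2 tumour. Of the 80 pairs of neighbouring lines (8 genes, 10 pairs each), 4 did not overlap: TC1 and B16F10 in Ly6a, MB49 and MBT2 in Ly6c1, MB49 and TC1 in Ly6c2, and MBT2 and 4T1 in Ly6e. For these the exact 2-sided permutation p of 5 against 5 was 0.00794, the smallest that the test can give. Adjusted over 80 pairs by Benjamini-Hochberg it was 0.159, a value that full separation in this few pairs cannot bring below the threshold, so the adjusted p does not show that these lines are alike. The other 76 pairs overlapped, 8 of them with an unadjusted exact p below 0.05. Neighbours were set by the same isotype means that were then compared. The share of separated neighbours over all genes was not computed, so these counts describe the lines and no trait of the Ly6 genes.

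Ly6e, a broadly expressed member known as a modifier of viral entry, was the most abundant, with a median of 846 FPKM and a range of 10.7 to 1881. Its isotype mean was highest in MB49 at 1568 ± 135 FPKM and lowest in B16F10 at 105 ± 58.1 (SD, n = 5 each). The 5 MB49 tumours held 1513, 1756, 1655, 1491 and 1423 FPKM, all far above the highest B16F10 tumour at 162. In RENCA, the line with the highest Ly6a, isotype tumours reached 1428 FPKM of Ly6e, and only the lowest MB49 tumour lay below that.

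The genes of the Ly6C antigens were less abundant. Ly6c1, the form known from endothelium, ran from 1.69 to 583 FPKM (median 65.3), and Ly6c2, the form known from monocytes, from 0.232 to 99.3 (median 14.6). Both had their highest isotype mean in RENCA, at 377 ± 118 and 37.6 ± 16.4 FPKM (SD, n = 5). MB49 came next for Ly6c1 at 262 ± 20.1 and EMT6 next for Ly6c2 at 33.1 ± 23.2. Ly6c1 was lowest in B16F10 at 15.4 FPKM and Ly6c2 in LL2 at 2.86.

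Ly6i, Ly6d, Ly6k and Ly6g were low genes. Ly6i, a close relative of Ly6a and the Ly6c genes, reached 1 FPKM in 65 tumours and ran up to 28.4. Its isotype means were highest in CM3 (6.73 ± 4.09), RENCA (4.62 ± 2.45) and EMT6 (2.85 ± 3.13), and its lowest was in LL2 (0.197). Ly6d, a marker of B cell precursors and of squamous epithelium, reached 1 FPKM in 57 tumours. Ly6k, known from the male germ line, did so in 10 tumours and was listed at 0 in 46. Of these 10, 9 were CM3 tumours at 8 days and 1 was an MB49 tumour, and in CM3 isotype tumours Ly6k was at 1.08, 2.09, 1.55, 1.40 and 0.899 FPKM. Ly6g reached 1 FPKM in 6 tumours, with a maximum of 2.19, and was listed at 0 in 52.

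**Figure D1:**
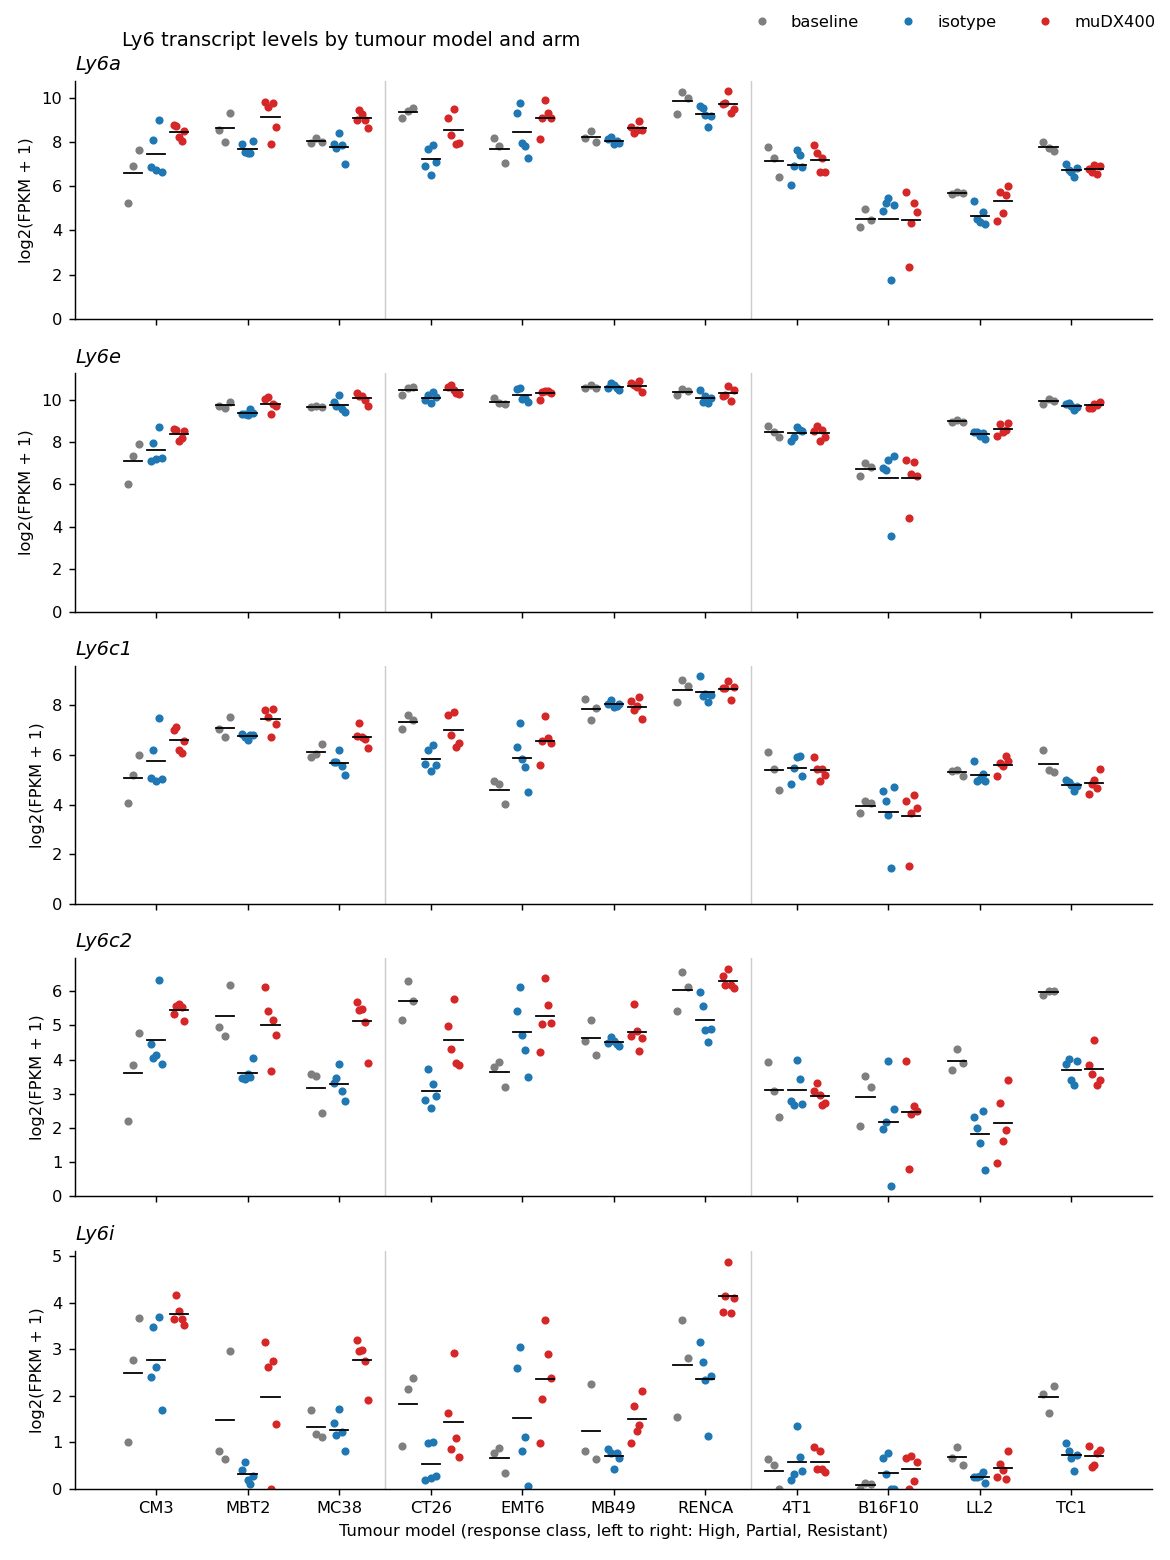
FPKM of Ly6a, Ly6e, Ly6c1, Ly6c2 and Ly6i as log2(FPKM + 1) in every tumour (points) with group means (black bars), by line and arm, lines ordered by response class and separated by grey lines. B16F10 and LL2 hold the lowest Ly6a values, RENCA the highest, and in MC38 the muDX400 points of Ly6c2 and Ly6i lie above all isotype points.

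With muDX400, 4 members rose together in MC38, a line of the High class. Differences below are those of mean log2(FPKM + 1), which understate the change of low genes, and were tested with limma within each line and adjusted over all genes with at least 1 FPKM in 5 of its 10 tumours. Of the 8 members, 6 passed that filter in MC38 and 4 were higher with muDX400 at an adjusted p below 0.05. Of all 12775 genes tested in MC38, 14.6% were called higher, so a call was common in this line.

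Ly6c2 rose most in MC38. Its isotype tumours held 8.89, 10.1, 13.5, 7.42 and 5.95 FPKM, and its muDX400 tumours 50.4, 43.1, 44.1, 33.1 and 13.9. The groups did not overlap, with muDX400 tumour 5 just above the highest isotype tumour. The difference was 1.83 ± 0.31 (SE) with a limma adjusted p of 0.00258. Ly6i was at 1.66, 1.24, 2.28, 1.35 and 0.750 FPKM with the isotype antibody and at 8.17, 6.84, 6.92, 5.71 and 2.74 with muDX400. Tumour 5 was again the lowest of its arm and the groups did not overlap. The difference was 1.50 ± 0.24 (limma adjusted p = 0.00177). Ly6a was at 238, 208, 333, 232 and 128 FPKM against 509, 693, 617, 512 and 392, again with no overlap, and rose by 1.29 ± 0.23 (limma adjusted p = 0.00296). Ly6c1 was at 51.7, 51.0, 72.8, 46.1 and 35.1 against 108, 154, 103, 98.8 and 75.7 FPKM, with every muDX400 tumour above every isotype tumour, and rose by 1.06 ± 0.20 (limma adjusted p = 0.00432).

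Ly6e did not pass in MC38. It was at 966, 829, 1217, 763 and 694 FPKM with the isotype antibody and at 1285, 1166, 1174, 1027 and 848 with muDX400, so the groups overlapped, and the difference was 0.31 ± 0.17 (limma adjusted p = 0.175). Ly6d, at 0.0673 to 3.28 against 0.0678 to 8.84 FPKM, did not pass either (1.21 ± 0.59, limma adjusted p = 0.138). With a spread shared over all lines Ly6d passed in MC38 (limma adjusted p = 0.0237). The share of all genes called in that fit is not given here. Ly6d met the filter through 4 muDX400 tumours and 1 isotype tumour, mainly the arm where it was high, so no trait of Ly6d is read from that call.

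The cell type markers of MC38 moved with these genes. All 10 T cell markers were called higher, their sum being 14.2 to 32.7 FPKM in isotype and 78.3 to 257 in muDX400 tumours. So were 6 of 10 monocyte and macrophage markers, with sums of 397 to 496 against 623 to 2202 FPKM, 8 of 9 tested endothelial markers, with sums of 41.1 to 50.9 against 43.0 to 165, and 5 of 10 fibroblast markers, with sums of 1023 to 2157 against 1351 to 3055. No marker of the T cell, macrophage, endothelial or fibroblast lists was at 0 throughout either MC38 arm. In muDX400 tumour 5, the one with the lowest Ly6c2 and Ly6i of its arm, the T cell and macrophage sums were also the lowest of the arm. Of the interferon genes, 12 of 14 interferon-gamma response genes (median difference of the list 1.39) and 11 of 12 type I interferon genes (0.77) were called higher, against a median of -0.06 over all genes. The part of these cells and responses in the Ly6 values was not tested.

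In RENCA, of the Partial class, Ly6i and Ly6c2 rose and the abundant members did not pass. These were 2 of 5 members tested, where 2.28% of 12664 genes were called higher. Ly6i was at 7.92, 5.57, 4.06, 1.18 and 4.38 FPKM with the isotype antibody and at 13.05, 16.6, 28.4, 12.8 and 16.1 with muDX400. No tumours overlapped, and the difference was 1.79 ± 0.35 (limma adjusted p = 0.0221). Ly6c2 was at 62.0, 46.5, 28.5, 22.02 and 28.8 against 86.2, 71.4, 99.3, 71.3 and 67.9 FPKM, also with no overlap, at 1.14 ± 0.25 (limma adjusted p = 0.0361). Ly6a, at 0.48 ± 0.22 (limma adjusted p = 0.358), had overlapping groups.

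Both RENCA calls were fragile. Of the 10 refits without 1 tumour, Ly6i lost its call in 3 and Ly6c2 in 7. Neither passed without isotype tumour 3 (Ly6i adjusted p = 0.0574, Ly6c2 0.0957), isotype tumour 5 (0.0614 and 0.110) or muDX400 tumour 2 (0.0602 and 0.0829), nor with no filter on low genes. Marker sums moved as well: 3 of 7 tested neutrophil markers, 5 of 10 endothelial markers and 2 of 10 macrophage markers were called higher, and no T cell marker was. The endothelial sum was 66.5 to 102 FPKM in isotype and 142.7 to 245 in muDX400 tumours.

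In MBT2, also of the High class, none of 4 tested members passed, and limma called 0 of 12541 genes in either direction (0%). An unadjusted limma p below 0.05 was held by 4 of the 4 members and by 3597 of the 12541 genes. Ly6a was at 237, 183, 181, 182 and 263 FPKM with the isotype antibody and at 888, 764, 235, 873 and 403 with muDX400. Only muDX400 tumour 3 lay within the isotype range. The difference was 1.44 ± 0.33 (limma adjusted p = 0.0510). The summed T cell markers of tumour 3 were 134 FPKM, against 224, 252.4, 266 and 132 in the other muDX400 tumours and 98.8 to 128 in isotype tumours. Without it 10.5% of genes were called higher, among them all 4 members, Ly6a at 1.76 (adjusted p = 0.00250), Ly6c2 at 1.75 (0.00312), Ly6c1 at 0.85 (0.00304) and Ly6e at 0.55 (0.00457). Without muDX400 tumour 5 Ly6a alone of the members was called (1.56, adjusted p = 0.0482, beside 2.34% of genes called higher). Ly6i was too low for the filter. It was at 0.325, 0.490, 0.148, 0.0746 and 0.209 FPKM in isotype and at 7.87, 5.12, 0, 5.68 and 1.62 in muDX400 tumours, so tumour 3 was again the low one.

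CM3, the remaining High line, had 7 members tested and none passed. Limma called 0 of 12945 genes there in either direction (0%). An unadjusted limma p below 0.05 was held by 3 of the 7 members and by 3441 of the 12945 genes. Ly6a was at 116, 274, 104, 509.5 and 97.3 FPKM in isotype and at 430.1, 416, 297, 265 and 359.7 in muDX400 tumours. Isotype tumour 4 was the highest of the 10. Without it Ly6a was higher by 1.37 (limma adjusted p = 0.00975), and Ly6c2 by 1.32, Ly6c1 by 1.28, Ly6i by 1.22 and Ly6e by 1.02 were called too, 5 in all, but 19.9% of all genes were called higher in that refit, against 0% with the tumour in. That tumour also had the highest T cell sum of the isotype arm, 119 FPKM against 22.9 to 40.7. With a spread shared over lines, Ly6e, Ly6i and Ly6a were called with all tumours in, where 30.7% of genes were called higher.

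In CT26 all 4 tested members had an unadjusted p below 0.05 and none an adjusted one, where 0.289% of genes were called higher and 0.0496% lower. Of all 12094 genes tested there, 2319 had an unadjusted limma p below 0.05. Ly6c2 was highest at 1.50 ± 0.35 (limma adjusted p = 0.0913), then Ly6a at 1.32 ± 0.33 (0.105) and Ly6c1 at 1.16 ± 0.29 (0.106). In EMT6, MB49, 4T1, B16F10, LL2 and TC1 no member was called by limma. The number with an unadjusted p below 0.05 was 2 of 4 in LL2, 1 of 5 in MB49 and 0 in EMT6, 4T1, B16F10 and TC1. Over all genes it was 1973 of 11904 in LL2 and 1247 of 12412 in MB49. For the other lines it was 538 of 12695 in EMT6, 601 of 12854 in 4T1, 351 of 11446 in B16F10 and 817 of 12470 in TC1. Background calls were 0% in 5 of these lines and 0.0802% higher in TC1. In the Resistant lines Ly6a differed by 0.20 ± 0.31 in 4T1, -0.01 ± 0.77 in B16F10, 0.65 ± 0.29 in LL2 and 0.03 ± 0.11 in TC1. Of these 4 lines the error was widest in B16F10, which has 1 of the low libraries in each arm, and narrowest in TC1. Without both low libraries Ly6a differed by -0.16 in B16F10 (limma adjusted p = 0.752), Ly6e by -0.20 (0.594), and no member was called.

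**Figure D2:**
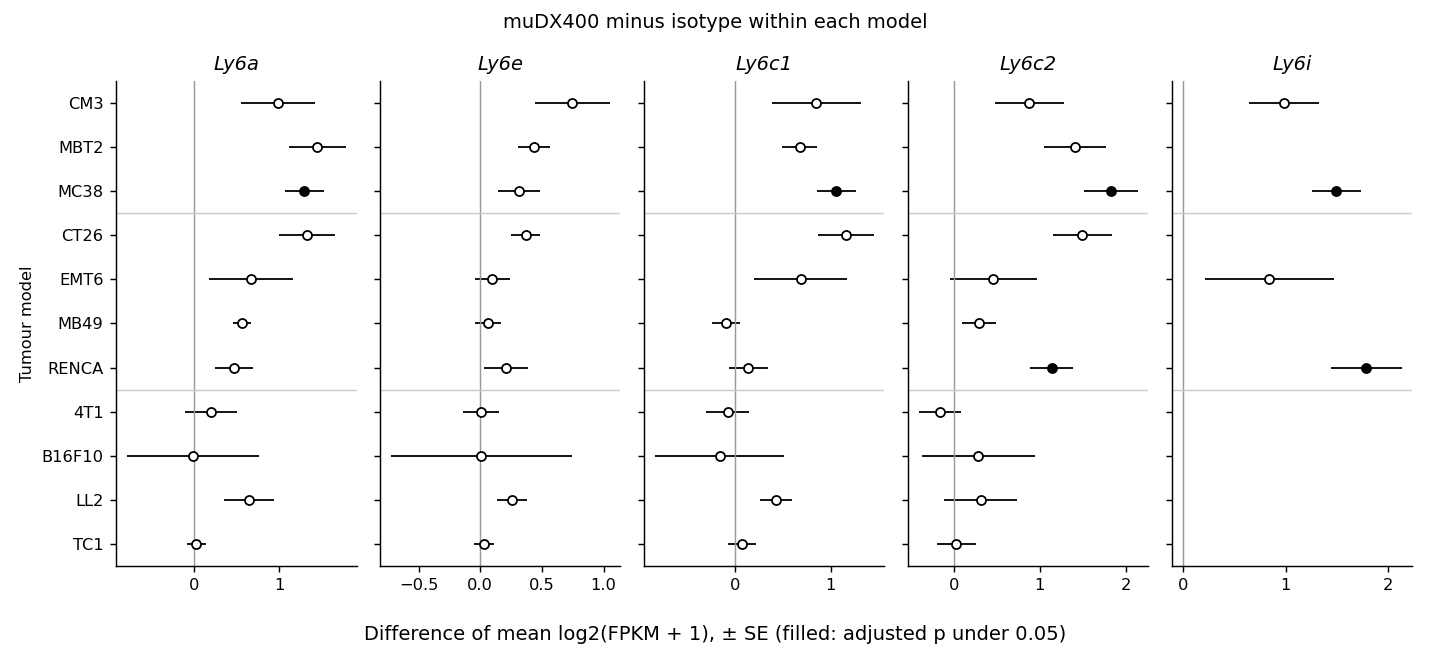
Difference of mean log2(FPKM + 1) between 5 muDX400 and 5 isotype tumours of each line (points) with its standard error (bars) for 5 Ly6 genes, filled where the limma adjusted p was below 0.05. Lines are ordered from High at the top to Resistant at the bottom, no point is drawn where a gene was too low to test, and the filled points are in MC38 (4 genes) and RENCA (2 genes).

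Averaged over the 11 lines, Ly6i was higher with muDX400 by 0.79 ± 0.11 (SE, limma adjusted p = 1.56e-07), Ly6c2 by 0.72 ± 0.13 (1.95e-05), Ly6a by 0.69 ± 0.13 (2.46e-05) and Ly6c1 by 0.43 ± 0.11 (0.00294). These were 4 of 7 tested members, where 14.5% of 16187 genes were called higher. Ly6e, at 0.23 ± 0.09, missed the threshold (limma adjusted p = 0.0536). Without the 3 libraries that stood apart it passed (0.24, adjusted p = 5.26e-05), and the other 4 stayed called, where 17.7% of genes were called higher. Ly6d (0.25 ± 0.13) and Ly6k (0.04 ± 0.03) did not pass, and Ly6g was too low to test. The T cell list was called higher in 10 of 10 genes in the same fit, the endothelial list in 10 of 10, the interferon-gamma list in 14 of 14 and the type I interferon list in 9 of 12. The macrophage, neutrophil and fibroblast lists were called higher in 7 of 10 genes each and the plasmacytoid dendritic cell list in 3 of 6, while no B cell or keratinocyte marker was called. Their part in the Ly6 values was not tested.

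Whether the size of the effect differed between lines was tested with a limma F test of the 10 differences between them, in which 32.4% of genes passed. Among 7 members only Ly6i passed (adjusted p = 0.00901), with Ly6c2 at 0.0560, Ly6c1 at 0.202 and Ly6a at 0.274. A trend of the effect with response class, with the line as the replicate (n = 11), was called by limma for Ly6i at 0.68 ± 0.13 per class (adjusted p = 0.0401) and Ly6a at 0.51 ± 0.10 (0.0446), and missed for Ly6c2 at 0.64 ± 0.14 (0.0537). These were 2 of 7 members, where 0.797% of genes had a rising trend. In the Resistant lines the isotype mean of Ly6i was only 0.197 to 0.662 FPKM, as it was in MBT2 of the High class (0.249). At such levels the log2(FPKM + 1) scale understates a change, so the size of the Ly6i trend is uncertain. The calls did not outlast most other settings: no member was called with a pseudocount of 0.1 or without the filter, and 0 to 3 were called when 1 line was left out.

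Other genes of the same superfamily, the Ly6/uPAR genes, were taken from a list of 30, of which 28 had a row. Few were high enough to test. In MC38, 2 of 5 were higher and 1 lower, where 14.6% of all genes were called higher and 12.7% lower: Cd59a, an inhibitor of complement, rose by 1.13, Gpihbp1, which holds lipoprotein lipase on capillaries, by 0.72, and Tex101, of the male germ line, fell by 0.86. In RENCA only Plaur, the urokinase receptor, was called, 1 of 5 at 0.72, where 2.28% of genes were called higher. Over all lines 6 of 13 were higher and 1 lower, beside 14.5% and 8.57% of all genes, led by Ly6g6e at 0.31 and Cd59a at 0.26.

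From baseline to isotype tumours the monocyte form Ly6c2 was lower over the 11 lines, by 0.74 ± 0.15 (SE, limma adjusted p = 5.54e-05), and Ly6a by 0.43 ± 0.15 (0.0180). Among 16879 genes 25.5% were called lower and 4.12% higher. The 2 of 8 members called lower are thus near the share over all genes, and the count is no particular trait of the family. All 8 members passed the filter of this fit, 1 FPKM in 3 of the 88 tumours, but Ly6k only through 4 CM3 isotype tumours and Ly6g only through the 3 RENCA baseline tumours. A gene that enters through the group where it is high had to differ there, so differences of these 2 genes are given as values without a p. Over the lines Ly6k differed by 0.12 ± 0.03. The arms differ in time and in the isotype injection, and for 9 lines also in the block of sample numbers, so these cannot be told apart. In the 2 lines whose arms share a block, B16F10 and RENCA, Ly6c2 was lower by 0.80 with an adjusted p of 0.261 and Ly6a by 0.32 with one of 0.667. Depth differs between the arms of these lines, at an estimated 35.89 to 49.55 M fragments at baseline and 16.41 to 21.63 M in isotype. In TC1 it was 36.73 to 39.36 M against 17.99 to 20.65 M. Arm and depth cannot be told apart there. Ly6a lost its call without CT26 (-0.26, adjusted p = 0.234), LL2 (0.0658), MBT2 (0.0568) or TC1 (0.0801), and with median-ratio scaling (0.0571). Without the 2 isotype libraries that stood apart Ly6c2 (-0.74, adjusted p = 5.80e-06) and Ly6a (-0.41, 0.00421) stayed called. Without CM3, Ly6k was too low to be tested.

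CT26 had the largest fall. Ly6a was at 545, 676 and 736 FPKM at baseline and at 121, 201, 90.0, 229 and 137 in isotype tumours. The groups were far apart, with a difference of -2.13 ± 0.48 (limma adjusted p = 0.00093), and the 5 muDX400 tumours, at 532, 314, 707, 238 and 245, lay above the isotype range, 1 of them within the baseline range. Ly6c2 was at 35.0, 77.8 and 51.2 against 5.996, 12.2, 4.99, 8.84 and 6.66 FPKM, also with no overlap (-2.66 ± 0.50, limma adjusted p = 5.41e-05). Ly6c1 fell by 1.51 and Ly6i by 1.28. These 4 of 8 members stood beside 12.6% of all genes called lower in CT26. There 11 of 12 type I interferon genes and 9 of 14 interferon-gamma genes were called lower too, with list medians of -1.54 and -1.36, and 3 of 10 T cell markers, whose sum was 96.0 to 160 FPKM at baseline and 41.8 to 69.3 in isotype tumours. Their part in the Ly6 values was not tested.

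Ly6c2 was also lower in TC1, LL2 and MBT2. In TC1 it was at 58.5, 63.1 and 63.1 FPKM at baseline and at 13.6, 15.4, 9.58, 8.60 and 14.6 in isotype tumours, a difference of -2.26 ± 0.50 (limma adjusted p = 0.000679). No tumours overlapped, and the muDX400 tumours, at 8.62 to 22.8 FPKM, remained in the range below baseline. The differences in LL2 and MBT2 were -2.15 and -1.67. The background of genes called lower was 11.8% in TC1, 5.10% in LL2 and 2.29% in MBT2. Members called lower were 1 of 8 in TC1, near that share, 2 of 8 in LL2 and 1 of 8 in MBT2. Marker lists were lower in the same comparisons. In TC1, 11 of 12 type I interferon genes were called lower, with sums of 669 to 765 FPKM at baseline and 222 to 349 in isotype tumours. So were 8 of 10 endothelial markers, with sums of 136 to 243 against 66.8 to 89.3, and 4 of 10 monocyte and macrophage markers, with sums of 510.1 to 702 against 253 to 377. In LL2, 6 of 12 type I interferon genes and none of 10 monocyte and macrophage or endothelial markers were called lower, and in MBT2 none of these 3 lists. No gene of the 3 lists was at 0 throughout either TC1 arm, and their part in the Ly6c2 values was not tested. In CM3 no member was called, where 7.38% of genes were called higher, leaving aside Ly6k, which passed the filter only through CM3 isotype tumours. Ly6k was at 0.0689, 0.381 and 0.402 FPKM in CM3 baseline tumours, below all 5 isotype values.

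**Figure D3:**
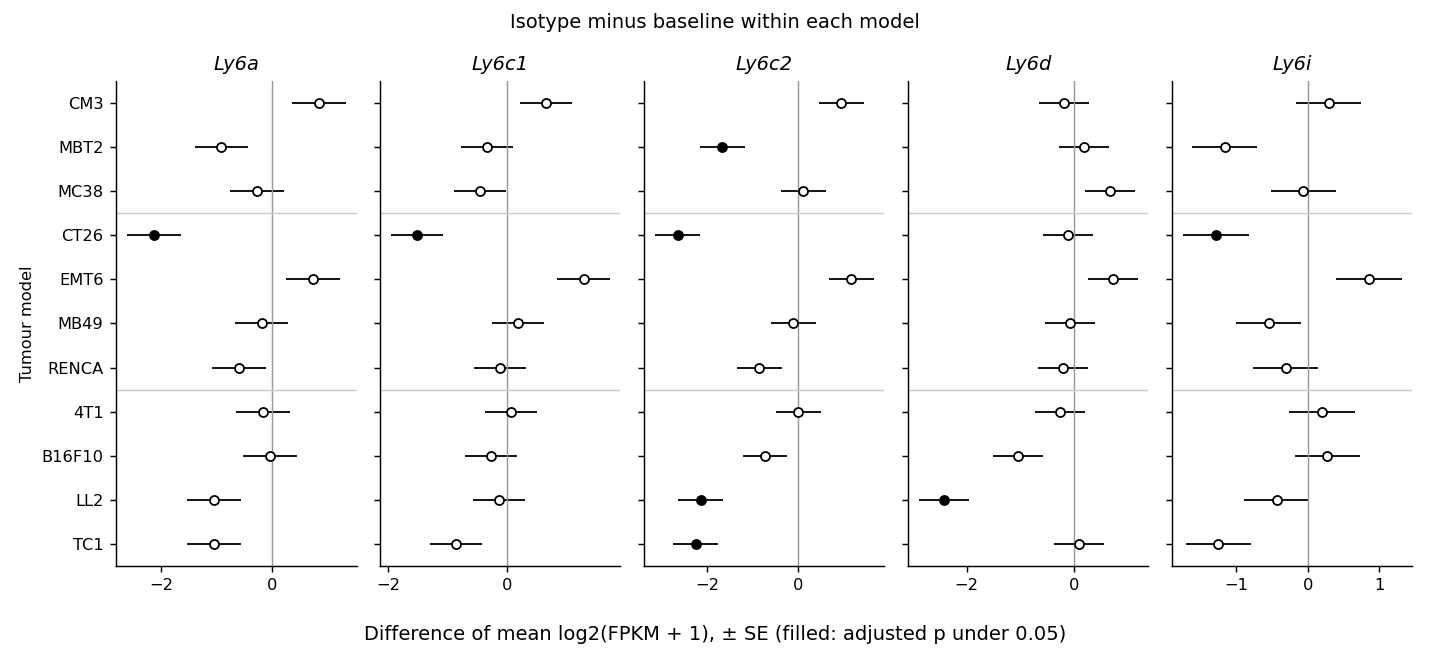
Difference of mean log2(FPKM + 1) between 5 isotype and 3 baseline tumours of each line (points) with its standard error (bars) for 5 Ly6 genes, filled where the limma adjusted p was below 0.05. Ly6c2 was called lower in MBT2, CT26, LL2 and TC1, Ly6d in LL2, and Ly6a, Ly6c1 and Ly6i in CT26.

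Ly6d was high in some tumours that were also high in B cell markers. In RENCA isotype tumour 2 it was at 20.1 FPKM, against 0.210, 0.922, 0.0803 and 0.830 in the other 4, and the 7 B cell markers summed to 962 FPKM there against 6.75 to 13.9. In LL2 it was at 4.86, 4.21 and 6.69 FPKM at baseline, with B cell sums of 29.0 to 37.6, and at 0.167, 0.175, 0.0582, 0.0568 and 0.354 in isotype tumours, with sums of 0.915 to 1.25. Both the gene and the B cell markers thus stood apart without overlap. The fall in LL2 was 2.41 ± 0.47 (limma adjusted p = 0.000195), and 5 of 7 B cell markers and 8 of 10 T cell markers were called lower. In MBT2 isotype tumour 2, Ly6d was at 2.18 FPKM against at most 0.324 in the others. Its B cell sum of 9.792 was the highest of the arm, but close to the next, the others being 5.743 to 9.788. There the keratinocyte and skin markers summed to 41.3 FPKM against 2.02 to 3.71. In B16F10, where Ly6d was not called, it was at 0.915 to 1.78 FPKM at baseline and at 0 to 0.270 in isotype tumours. The B cell sums there overlapped, at 1.95 to 2.80 and 1.35 to 3.06. MB49 baseline tumours held 2.39 to 3.75 FPKM of Ly6d with B cell sums of only 6.16 to 8.25. No B cell marker was at 0 throughout either LL2 arm, and the part of B cells or skin in the Ly6d values was not tested.

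Ly6g, whose protein marks neutrophils, stayed near 0 in tumours with abundant neutrophil transcripts. In 4T1 isotype tumours the 10 neutrophil markers summed to 175 to 381 FPKM, and Ly6g was at 0.582, 0.292, 0.403, 0.662 and 0.993. At 4T1 baseline the sums were 31.2 to 52.0 and Ly6g was at 0.252, 0.0560 and 0.0502. The arms did not overlap in either, and all 10 markers were called higher, where 2.04% of genes were. No 4T1 tumour reached 1 FPKM of Ly6g, and its difference was 0.49 ± 0.10. RENCA went the other way. Ly6g was at 1.15, 2.19 and 1.31 FPKM at baseline, with neutrophil sums of 33.6 to 39.5, and at 0.277, 0.465, 0.168, 0.191 and 0.656 in isotype tumours, with sums of 29.0 to 94.9. The difference was -0.91 ± 0.10, in the group through which Ly6g passed the filter. There 1 of 10 neutrophil markers was called lower, where 18.5% of genes were. The highest Ly6g value was thus at RENCA baseline and not in a tumour with the most neutrophil transcripts.

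**Figure D4:**
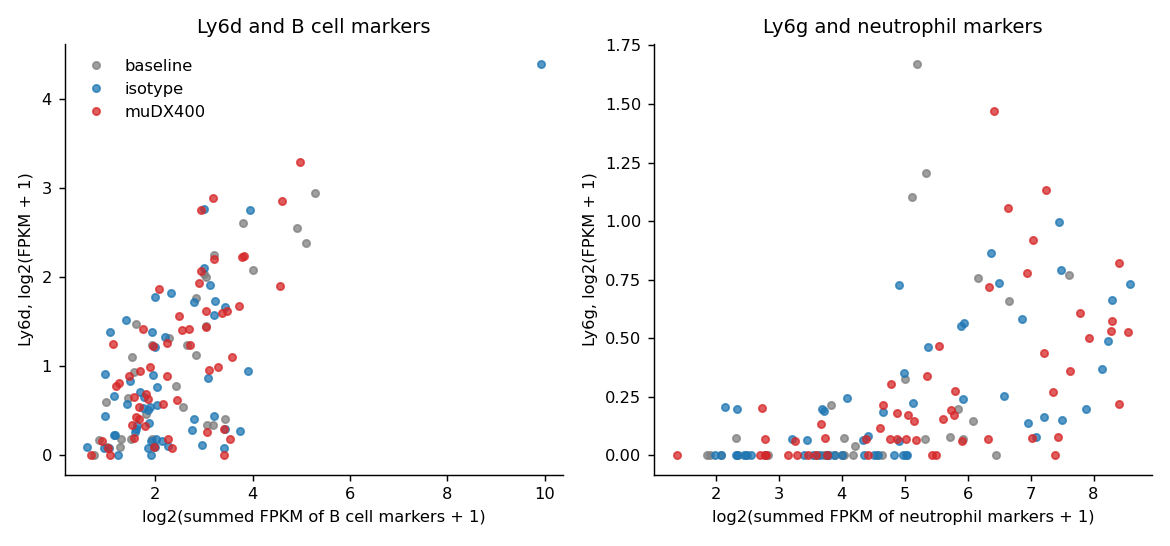
Ly6d against the summed FPKM of 7 B cell markers (left) and Ly6g against the summed FPKM of 10 neutrophil markers (right), on log2(value + 1) scales, one point per tumour coloured by arm. The single point at the far right of the Ly6d plot is RENCA isotype tumour 2, and the highest Ly6g point, 2.19 FPKM, is a RENCA baseline tumour.

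The members were compared by their strain of origin because of the known Ly6 haplotypes. The strain of a line is general knowledge and not in the labels: CT26, EMT6, 4T1 and RENCA come from BALB/c mice, MC38, B16F10, LL2, TC1 and MB49 from C57BL/6, and MBT2 from C3H, and CM3 was not assigned. H2-Ea-ps, the E alpha locus that C57BL/6 mice do not transcribe, was used as a check. It was at 17.5 to 1188 FPKM in every tumour of the BALB/c lines, MBT2 and CM3 and at most 0.753 in every tumour of the C57BL/6 lines. The isotype means of the 4 BALB/c and 5 C57BL/6 lines did not overlap, with an exact 2-sided permutation p of 0.00794.

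No Ly6 member separated the lines in that way. Ly6a averaged 7.96 ± 1.06 (SD over 4 line means of log2(FPKM + 1)) in BALB/c and 6.34 ± 1.68 (n = 5) in C57BL/6 lines, a difference of 1.62 with an exact permutation p of 0.167. All 8 members had overlapping line means, and their exact permutation p ran from 0.167 for Ly6a to 0.897 for Ly6d. By limma, 0 of 6 tested members passed, where 1.02% of 13229 genes were called higher and 0.121% lower in BALB/c lines. An unadjusted limma p below 0.05 was held by 0 of the 6 members and by 1027 of the 13229 genes. Within the blocks of sample numbers the Ly6a difference changed sign: 2.04 with EMT6 against MC38, LL2 and TC1, 4.74 with RENCA against B16F10, and -0.95 with CT26 and 4T1 against MB49. Ly6c1, Ly6c2, Ly6e and Ly6i showed the same signs by block. Strain and tumour line cannot be told apart in this design.

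**Figure D5:**
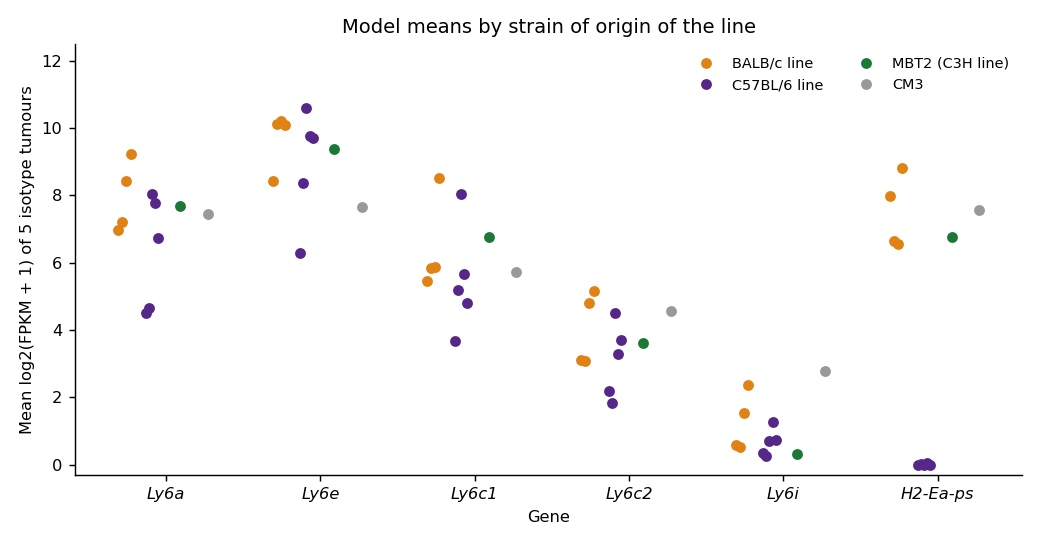
Mean log2(FPKM + 1) of the 5 isotype tumours of each line (points) for 5 Ly6 genes and H2-Ea-ps, coloured by strain of origin. H2-Ea-ps leaves a gap between the BALB/c and C57BL/6 lines, whereas the Ly6 genes overlap.

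Within groups, Ly6a, Ly6c1, Ly6c2, Ly6e and Ly6i varied together, with a Pearson r between pairs of 0.44 to 0.91. Their r was lower with Ly6d, at 0.22 to 0.37, with Ly6g, at 0.11 to 0.23, and with Ly6k, at 0.15 to 0.19. After group means were removed, Ly6a correlated with Ly6c1 at a Pearson r of 0.91 over all tumours, with Slfn2, an interferon-induced gene of T cells and monocytes, at 0.86 and with Ly6e at 0.86. Ly6c2 was closest to Slfn2 (0.85), Slfn1 and Ly6a (0.84 each). Ly6e was closest to C1qa (0.86), a complement gene of macrophages, Ly6i to Ifng (0.82), the interferon-gamma gene, and Ubd (0.81), and Ly6d to Irf4 (0.69), St14 and Cd79b (0.67 each). These r are descriptions without a test. The 2 genes of a pair are read in the same libraries and share depth, and Ly6a, Ly6c1 and Ly6c2 also share sequence. Over the 11 isotype line means, Ly6a was closest to Ifnar2 (0.96), a chain of the type I interferon receptor.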

How the data were processed

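Tumour RNA was depleted of ribosomal RNA, made into stranded libraries and read as 50-base pairs, per the labels' protocols. The authors deposited FPKM values for all samples in 1 table. Which aligner, quantifier, build and scaling they used is not given in the sources used here. Columns were matched to samples by the labels, and 0 columns went unused. No 2 libraries of a group were alike enough to be copies (highest r 0.997 over 253 pairs). Replicate numbers did not pair the samples.

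From the deposited FPKM, log2(FPKM + 1) was computed and tested over all genes with limma 3.58.1 (R 4.3.3) with an intensity trend, 2-sided, Benjamini-Hochberg adjusted, at a threshold of 0.05. Genes needed 1 FPKM in 5 libraries (3 for baseline comparisons, 3 line means for strain). The scripts were tested on simulated data. Single values had exact permutation tests. Named genes are the 8 members, the 3 most correlated genes of each and the 4 largest changes among called Ly6/uPAR genes. The members, lists and tests were chosen with earlier results of these data known. Alternatives were another pseudocount, no filter, median-ratio scaling, a replicate block, a shared spread, other arms, and left-out libraries or lines. Those without the libraries that stood apart and the F test were added after the data were seen.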

Additional observations from a re-analysis of the deposited data

Results flagged for a closer look

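In groups of 5 tumours, 11 of 123 combinations of group and member (those with a tumour at 1 FPKM or more) held a tumour far from the other 4 on the log2(FPKM + 1) scale. For independent, normally spread values about 1 in 20 would. Several members vary together within libraries and the rate over all genes was not computed, so no excess can be read from this count. In B16F10 isotype tumour 4, Ly6a was at 2.41 FPKM against 28.6 to 42.9 and Ly6e at 10.7 against 100.2 to 162. In B16F10 muDX400 tumour 2, Ly6c1 was at 1.89 FPKM against 11.7 to 20.1 and Ly6e at 20.2 against 83.8 to 141. In CM3 isotype tumour 4, Ly6c2 was at 79.4 FPKM against 13.7 to 21.0.

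In MBT2 isotype tumours, Ly6c2 was at 15.6 FPKM in tumour 5 against 9.89 to 10.9, Ly6d at 2.18 in tumour 2 against 0.0579 to 0.324, and Ly6e at 752.7 in tumour 4 against 629 to 655. Ly6d was at 20.1 FPKM in RENCA isotype tumour 2 against 0.0803 to 0.922 and at 5.83 in MB49 isotype tumour 3 against 1.99 to 2.77. Ly6e was at 1007 FPKM in EMT6 muDX400 tumour 1 against 1282 to 1378.

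The muDX400 effect on Ly6i differed between the 11 lines by the limma F test (adjusted p = 0.00901), in which 32.4% of genes passed. A rising trend with response class was called for Ly6i (limma adjusted p = 0.0401) and Ly6a (0.0446), where 0.797% of genes had one. Neither was called with a pseudocount of 0.1 or without the filter. Of 11 refits without 1 line, Ly6i kept its call in 4 and Ly6a in 3.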

How the results depend on the processing

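Replicate numbers did not pair the tumours: of 55 same-numbered pairs, 19 had a correlation of deviations above 0.1 (-0.67 to 0.64) and 11 correlated best with their own number. With the number as a replicate block, 1 member was called in RENCA instead of 2, 4 in MC38 and 4 over all lines as before, and 2 from baseline to isotype.

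Of the member counts, CM3 moved from 0 to 3 with a shared spread and to 0 to 5 without 1 tumour, MBT2 from 0 to 0 to 4 without 1 tumour. RENCA moved from 2 to 0 without the filter, 1 with a shared spread and 0 to 2 without 1 tumour. The class trend moved from 2 to 0 with a pseudocount of 0.1, 0 without the filter, 1 with median-ratio scaling and 0 to 3 without 1 line. Baseline to isotype moved from 3 to 1 with B16F10 and RENCA only. The 3 counted Ly6k, which passed the filter only through CM3 isotype tumours, so its part in that count is no result. The MC38 count was 4 to 5 without 1 tumour and that over all lines 4 to 5 without 1 line.

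Differences that changed sign were not called in either setting. With median-ratio scaling these were Ly6e in 4T1 (-0.013), Ly6a in B16F10 (0.034) and Ly6g from baseline to isotype (0.001). With a pseudocount of 0.1 they were Ly6a in B16F10 (0.019), Ly6g from baseline to isotype (0.152) and the class trend of Ly6d (-0.093). Without both low B16F10 libraries Ly6e was at -0.204. Ranges without 1 tumour that crossed 0 were, in 4T1, -0.084 to 0.101 (Ly6e), -0.025 to 0.371 (Ly6a), -0.235 to 0.048 (Ly6c1) and -0.280 to 0.051 (Ly6c2). In B16F10 they were -0.679 to 0.485 (Ly6e), -0.691 to 0.526 (Ly6a), -0.724 to 0.337 (Ly6c1) and -0.191 to 0.721 (Ly6c2). In TC1 they were -0.016 to 0.066 (Ly6e), -0.051 to 0.103 (Ly6a), -0.062 to 0.181 (Ly6c1) and -0.187 to 0.140 (Ly6c2). They were -0.150 to 0.361 for Ly6d in CM3, -0.010 to 0.597 for Ly6c2 in LL2, and -0.127 to 0.288 for Ly6d and -0.198 to 0.030 for Ly6c1 in MB49. Without 1 line they were -0.139 to 0.109 for the class trend of Ly6d, -0.272 to 0.008 for Ly6c1 from baseline to isotype and -0.224 to 0.049 for Ly6d between strains. The cause was not tested. Low values of Ly6g and Ly6k rest on few fragments.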
